A study of Homo sapiens with 6 samples.

Results

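A set of 10 genes of the Notch pathway were followed in the transcriptome of U87MG glioblastoma cells that received LMO2. They were the receptors NOTCH1, NOTCH2 and NOTCH3, the ligands JAG1, JAG2 and DLL1, and the targets HES1, HEY1, HEY2 and NRARP, chosen by name and found by gene symbol and Entrez gene ID among 27259 genes. Values were read for 9 of the 10 genes, and NRARP was not analysed here. Of these 9 genes, 7 had enough reads for the test across all genes, and DLL1 and HEY2 did not.

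RNA-seq was performed on U87MG, an established human glioblastoma cell line, infected for 24 h with either a control lentivirus, in 3 libraries called U87MG-control, or an LMO2 lentivirus, in 3 libraries called U87MG-LMO2. LMO2 encodes a LIM-domain adaptor protein, and the study asked which genes respond when it is overexpressed. All 6 libraries come from 1 cell line, both groups were infected, and the study's methods place human LMO2 in the pLL-CMV-puro vector. The sources used here do not say what the control lentivirus carried or whether the libraries came from separate cultures, so p-values measure the spread between these libraries, which may be technical.

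Notch receptors are single-pass membrane proteins that bind JAG and DLL ligands on neighbouring cells. Binding exposes the receptor to ADAM proteases and then to gamma-secretase, and the released intracellular domain joins the DNA-binding protein RBPJ and a Mastermind coactivator (MAML) in the nucleus. HES and HEY genes, which encode basic helix-loop-helix repressors, and NRARP, a feedback inhibitor, are well known targets of this complex, and the pathway is studied in neural and glioma stem cells.

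Counts of LMO2 (4005) matched the labels, with 7, 11 and 5 in U87MG-control against 5459, 4503 and 14570 in U87MG-LMO2, a log2 fold change of 9.70 (95% interval 8.34 to 11.07, edgeR adjusted p = 4.13e-04). The library with the most LMO2 was U87MG-LMO2 replicate 3. Depth was 11428432 to 13537284 counts in U87MG-control and 14630627 to 17892955 counts in U87MG-LMO2, so that 3 counts, the limit that a count of 0 allows, were worth 0.168 to 0.263 CPM, the read count normalised to library size. This limit and the intervals of count ratios cover counting error only. Of 6 markers of mesenchymal glioma lines, 5 reached 1 FPKM, a level scaled to gene length and mapped fragments, in every library, and the list summed to 6296 to 6427 FPKM in U87MG-control and 6664 to 7667 FPKM in U87MG-LMO2. Most of this mesenchymal sum was VIM, with means of 5166 FPKM in U87MG-control and 5366 FPKM in U87MG-LMO2. Of 7 astroglial markers, S100B, AQP4 and ALDH1L1 stayed under 0.1 FPKM in every library, and the summed level of the list was 12.5 to 16.0 FPKM in U87MG-control and 6.97 to 10.1 FPKM in U87MG-LMO2. The highest of that list was SLC1A3, with means of 8.90 FPKM in U87MG-control and 6.15 FPKM in U87MG-LMO2. SOX9 of that list was called lower (log2 fold change -1.47, adjusted p = 0.00918). The 9 endothelial markers summed to 5.71 to 5.98 FPKM in U87MG-control and 4.43 to 5.19 FPKM in U87MG-LMO2, with CDH5 and DLL4 under 0.1 FPKM in every library. NOTCH4 is among them. The remaining 8 summed to 2.49 to 2.64 FPKM in U87MG-control and 2.08 to 2.46 FPKM in U87MG-LMO2. Of these, PECAM1 averaged 1.05 and 0.89 FPKM, and KDR 0.75 and 0.78 FPKM. The 5 neuronal markers summed to 16.4 to 18.4 and 14.5 to 16.5 FPKM, with NEFL under 0.1 FPKM throughout. Most of this sum was SNAP25, with means of 14.0 FPKM in U87MG-control and 13.5 FPKM in U87MG-LMO2. GAP43 averaged 2.59 and 1.37 FPKM. The 5 blood markers summed to 1.18 to 1.48 and 1.63 to 1.81 FPKM, with TAL1 and CD3E under 0.1 FPKM throughout. Highest of the blood markers was CD34, with means of 0.86 and 1.12 FPKM. The part of these marker shifts in the values below was not tested.

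The promoters of HES1 and HEY2 are shown because, of the 8 genes with a RefSeq promoter window (all but DLL1 and HEY1), they were the 2 whose 250 bases before the start site held the letters GTGGGAA or their reverse complement TTCCCAC, the form that RBPJ is known to bind. The windows are given 5′ to 3′ on the plus strand of GRCh38.p14. The HES1 window, chr3:194135948-194136107, covers bases 200 to 41 before the start site. The HEY2 window, chr6:125749382-125749531, covers bases 250 to 101 before the start site and lies within the span of the HEY2 gene in the GENCODE annotation. Capitals mark GTGGGAA or TTCCCAC and, in HES1, a further TGGGAA.
HES1: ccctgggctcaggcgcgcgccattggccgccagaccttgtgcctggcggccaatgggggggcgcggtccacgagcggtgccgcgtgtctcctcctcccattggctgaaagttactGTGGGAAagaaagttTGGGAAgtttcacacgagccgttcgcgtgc
HEY2: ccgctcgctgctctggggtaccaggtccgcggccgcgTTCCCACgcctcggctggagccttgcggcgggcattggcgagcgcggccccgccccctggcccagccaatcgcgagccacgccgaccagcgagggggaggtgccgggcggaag

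On either strand, GTGGGAA was present in 5.43% of 35116 promoter windows of this length, and the shorter TGGGAA, which lies within it, in 20.8%. In HES1, GTGGGAA began 85 bases and the separate TGGGAA 70 bases before the start site, in the same orientation. In HEY2 the letters were on the minus strand and began 213 bases before the start site. The N box CACNAG, a form that HES proteins bind, was found in 32.0% of all windows, and among these genes at 3 places in HES1 and 1 place in NOTCH3. The letters TTCNNNGAA, the core bound by STAT3, were in 6.57% of all windows and in 0 of the 8. These matches describe the letters of the windows only.

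Levels were compared between genes as FPKM, which is scaled to gene length. In U87MG-control, NOTCH2 had the highest level at 100.9 ± 5.70 FPKM (SD, n = 3), followed by NOTCH1 at 11.2 ± 1.02 FPKM (SD, n = 3). HEY1 at 2.19 ± 0.071 FPKM and JAG1 at 2.04 ± 0.211 FPKM overlapped each other. HES1 followed at 0.483 ± 0.370 FPKM and overlapped JAG2 at 0.140 ± 0.046 FPKM. DLL1, HEY2 and NOTCH3 had means of 0.057, 0.050 and 0.043 FPKM, and each of them overlapped its neighbour in the order.

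In U87MG-LMO2, NOTCH2 at 92.5 ± 14.7 FPKM and NOTCH1 at 10.7 ± 0.076 FPKM kept the first places. JAG1 came next at 2.66 ± 0.050 FPKM, apart from the genes on either side. HES1 at 1.60 ± 0.774 FPKM overlapped HEY1 at 1.12 ± 0.147 FPKM, so that their order was not resolved. JAG2 at 0.470 ± 0.279 FPKM was above HEY2 at 0.180 ± 0.040 FPKM, which overlapped NOTCH3 at 0.160 ± 0.040 FPKM, and DLL1 was last at 0.047 ± 0.025 FPKM. FPKM values are rounded to 2 decimals, which is coarse for the last 3 genes.

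**Figure D1:**
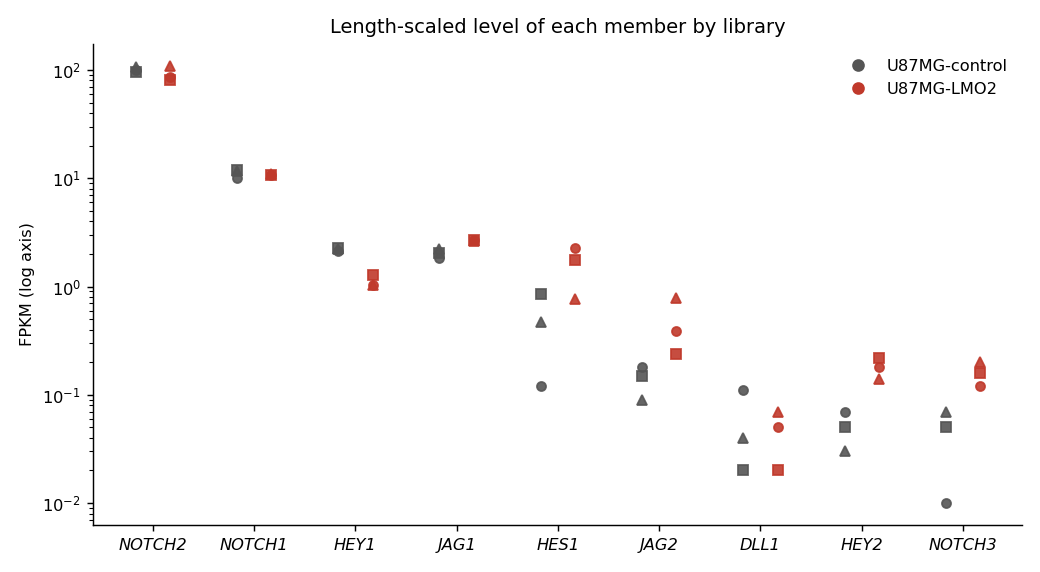
Level of the 9 genes with values in each library, in FPKM on a log axis, with U87MG-control in grey and U87MG-LMO2 in red (circle, square and triangle are replicates 1, 2 and 3). The genes are ordered by their U87MG-control mean, from NOTCH2 at 100.9 FPKM to NOTCH3 at 0.043 FPKM.

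Across the genes tested with edgeR, 4.72% were called higher and 2.75% lower in U87MG-LMO2 at an adjusted p under 0.05, and the median log2 fold change was -0.01. Among the Notch genes, JAG2 was called higher and HEY1 lower, each 1 of the 7 tested and 1 of the 10 followed, too few to read against these shares. The 3 libraries of U87MG-LMO2 lay above all 3 of U87MG-control for NOTCH3, JAG1 and JAG2 among the tested genes, and below them for HEY1, where 17.5% and 16.6% of all tested genes did so. NOTCH3, JAG2 and HES1 reached the filter of 0.713 CPM in all 3 U87MG-LMO2 libraries but in 0, 1 and 1 U87MG-control libraries, so these 3 entered the test through the group in which they were higher. In bulk RNA, a change in RNA per cell and a change in the share of cells that express a gene cannot be told apart.

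Of the receptors, NOTCH1 and NOTCH2 had log2 fold changes near 0, and NOTCH3 was low in all libraries with higher values in U87MG-LMO2. NOTCH1 (4851, chr9:136494433-136545786, minus strand) had 94.3, 112 and 110 CPM in U87MG-control and 98.8, 101 and 111 CPM in U87MG-LMO2. The groups overlapped, and the log2 fold change was -0.02 (SE 0.10, 95% interval -0.26 to 0.22, adjusted p = 0.909). The interval as a fold ran from 0.83 to 1.16 and holds for this fit only. After correction for GC content the log2 fold change was -0.25 (adjusted p = 0.134), close to the lower limit.

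NOTCH2 (4853, chr1:119911553-120069626, minus strand) had 1079, 1040 and 1102 CPM in U87MG-control and 935, 888 and 1227 CPM in U87MG-LMO2. U87MG-LMO2 replicate 3 lay above every control and the other two U87MG-LMO2 libraries below every control, so that the spread of the LMO2 group, an SD of 184 CPM against 31.4 CPM, covered the difference of the means. A log2 fold change of -0.08 resulted (SE 0.13, 95% interval -0.38 to 0.22, adjusted p = 0.742). The human-specific NOTCH2NL genes are near-identical to the first part of NOTCH2, and the estimated counts may divide reads between them, which makes the NOTCH2 values uncertain. NOTCH2NLA, NOTCH2NLB and NOTCH2NLR had means of 11.6, 33.1 and 6.91 CPM in U87MG-control, far under NOTCH2, and of 12.6, 29.1 and 7.18 CPM in U87MG-LMO2, with overlapping groups.

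NOTCH3 (4854, chr19:15159038-15200981, minus strand), a receptor best known from vascular smooth muscle and pericytes, had 1, 6 and 8 counts in U87MG-control and 16, 19 and 30 counts in U87MG-LMO2. These are 0.087, 0.438 and 0.605 CPM against 0.976, 1.30 and 1.81 CPM, and the groups did not overlap. The log2 fold change was 1.79 (SE 0.50, 95% interval 0.66 to 2.92), and the adjusted p of 0.0643 missed the threshold. With no filter on low counts it was 0.0417. NOTCH4 (4855), the fourth receptor, averaged 22.3 ± 1.25 CPM in the controls and 18.1 ± 4.43 CPM with LMO2 (SD, n = 3), a log2 fold change of -0.30 (adjusted p = 0.323). Without U87MG-LMO2 replicate 3 its log2 fold change was -0.50 (adjusted p = 0.0222), and after correction for GC content it was -0.52 (adjusted p = 0.0499).

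By summed FPKM of the 4 receptors, NOTCH2 made up 87.4% ± 1.12 in U87MG-control and 87.2% ± 1.21 in U87MG-LMO2 (SD, n = 3). NOTCH1 made up 9.75% ± 0.889 and 10.3% ± 1.33, and NOTCH3 made up 0.037% ± 0.025 and 0.150% ± 0.027. The receptor message of these cells was therefore mostly NOTCH2 in both groups, and the 4 genes summed to 115 ± 5.86 and 106 ± 15.3 FPKM.

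The ligands JAG1 and JAG2 were both higher in every U87MG-LMO2 library than in every control, as were 17.5% of all tested genes. Only the rarer of these 2 genes passed the test. JAG2 (3714, chr14:105140981-105168824, minus strand) encodes a Jagged ligand. It had 11, 9 and 7 counts in U87MG-control and 35, 21 and 74 counts in U87MG-LMO2, or 0.954, 0.657 and 0.530 CPM against 2.13, 1.43 and 4.46 CPM. U87MG-LMO2 replicate 3, the library with the most LMO2, was the highest, and the groups did not overlap. Whether JAG2 follows the LMO2 level was not tested. JAG2 reached the filter in 1 U87MG-control library, so it entered the test through the group in which it was higher. JAG2 rose by 1.92 on the log2 scale (SE 0.48, 95% interval 0.83 to 3.01, adjusted p = 0.0471), a 3.78-fold change with an interval from 1.77 to 8.06. Without U87MG-LMO2 replicate 3 the log2 fold change was 1.34 (adjusted p = 0.0351). The call was lost without U87MG-control replicate 1, 2 or 3 (adjusted p = 0.126, 0.147 and 0.167), without U87MG-LMO2 replicate 1 (0.101), after GC correction (0.0609) and with limma on log2(FPKM + 0.1) or log2(FPKM + 1) (0.101 and 0.138).

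JAG1 (182, chr20:10637684-10673999, minus strand) was the most abundant of JAG1, JAG2, DLL1 and DLL4. It had 10.9, 12.3 and 13.5 CPM in U87MG-control and 16.2, 16.2 and 17.1 CPM in U87MG-LMO2. The libraries were tightly grouped and did not overlap between groups. Its log2 fold change was 0.43 (SE 0.13, 95% interval 0.13 to 0.72), a ratio of 1.34, and the adjusted p of 0.0831 missed the threshold, as it did under all 14 alternatives (0.0686 to 0.218).

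DLL1 (28514, chr6:170282206-170306565, minus strand), a Delta-like ligand, was close to the detection limit with 5, 1 and 2 counts in U87MG-control and 3, 1 and 5 counts in U87MG-LMO2. The ratio of summed counts per depth was 0.907 (95% interval 0.311 to 2.70). This interval runs from a fall to a rise, so neither was resolved. For DLL1 an exact 2-sided permutation test gave p = 0.8. The smallest value that 3 against 3 libraries allow is 0.1, so this test could not call a difference at any depth. Its locus overlaps FAM120B on the opposite strand. DLL4 (54567), a ligand of endothelial cells, had 1 count in U87MG-control replicate 1 and 0 counts in the other 5 libraries, and DLL3 was not analysed here.

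Summed over JAG1, JAG2, DLL1 and DLL4, ligand message was 2.14, 2.23 and 2.37 FPKM in U87MG-control and 3.15, 2.93 and 3.46 FPKM in U87MG-LMO2. The 2 groups did not overlap, and this sum holds the same genes as read above. JAG1 made up 90.6% ± 4.97 of this sum in U87MG-control and 84.2% ± 8.01 in U87MG-LMO2, and JAG2 6.31% ± 2.33 and 14.4% ± 7.38 (SD, n = 3). DNER (92737), from the wider list of other receptors and ligands, is not in this sum and was far above it. Its means were 64.6 FPKM in U87MG-control and 77.9 FPKM in U87MG-LMO2, and it was not called by edgeR (log2 fold change 0.32, adjusted p = 0.154).

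**Figure D2:**
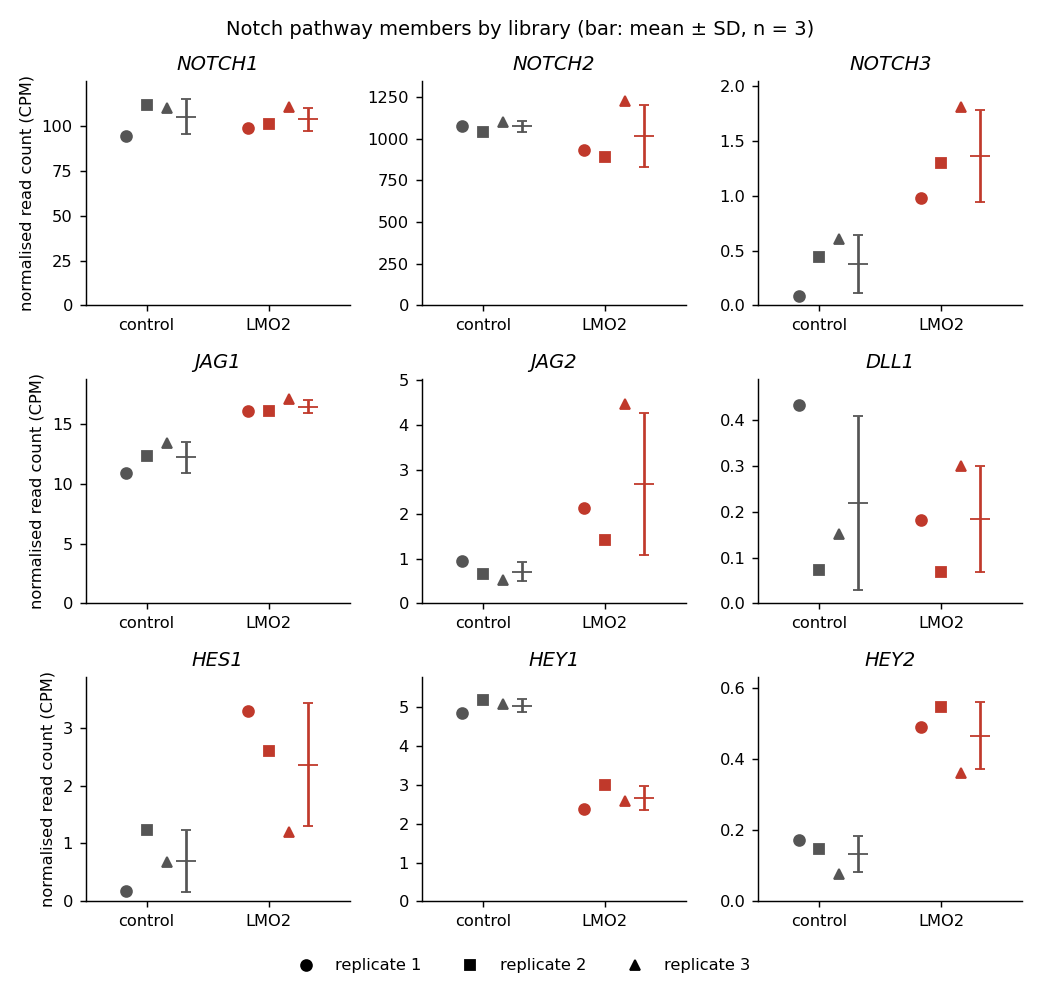
Normalised read count of each gene in each library, in CPM on linear axes from 0, with the mean and SD of 3 libraries beside the points (U87MG-control in grey, U87MG-LMO2 in red). JAG2 and HEY1 passed the test, and JAG2 entered it through U87MG-LMO2, the group in which it was higher. HEY1 had all 3 U87MG-LMO2 libraries between 2.38 and 3.00 CPM and all controls between 4.86 and 5.19 CPM.

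Of the targets, HEY1 fell, whereas HES1 and HEY2 had higher means in U87MG-LMO2. HES1 did not pass the edgeR test of all 6 libraries, and HEY2 had too few reads for it. HEY1 (23462), a hairy-related repressor, had 56, 71 and 67 counts in U87MG-control and 39, 44 and 43 counts in U87MG-LMO2 despite the greater depth of the LMO2 libraries. These were 4.86, 5.19 and 5.07 CPM against 2.38, 3.00 and 2.59 CPM. The groups did not overlap, and the gap between them, from 3.00 to 4.86 CPM, was larger than the range within either. HEY1 fell by 0.92 on the log2 scale (SE 0.19, 95% interval -1.35 to -0.50, adjusted p = 0.0261), to 0.53 of its control level. Its log2 fold change lay between -1.02 and -0.59 under every alternative. The call was lost without U87MG-control replicate 1, 2 or 3 (adjusted p = 0.0781, 0.104 and 0.106) and without U87MG-LMO2 replicate 1 (0.0977), with log2 fold changes from -0.95 to -0.85 in these 4 fits.

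HES1 (3280, chr3:194136145-194138732, plus strand), the target whose promoter is printed first, had 2, 17 and 9 counts in U87MG-control and 54, 38 and 20 counts in U87MG-LMO2. These are 0.174, 1.24 and 0.681 CPM against 3.29, 2.59 and 1.21 CPM. U87MG-control replicate 2 was just above U87MG-LMO2 replicate 3, so the groups overlapped, and within the LMO2 group the library with the most LMO2 had the least HES1. A relation of HES1 to the LMO2 level was not tested. The log2 fold change was 1.70 (SE 0.55, 95% interval 0.45 to 2.95, adjusted p = 0.0966). Without U87MG-LMO2 replicate 3 it was 2.02 (adjusted p = 0.0176), and with DESeq2 it was 1.73 (adjusted p = 0.0365). Without U87MG-control replicate 2, the highest control, it was 2.40 (adjusted p = 0.109), and without U87MG-control replicate 1, the lowest, 1.28 (adjusted p = 0.237). The other alternatives gave an adjusted p above 0.05, up to 0.253 without U87MG-LMO2 replicate 1.

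HEY2 (23493, chr6:125747664-125761269, plus strand), the relative of HEY1 whose promoter is also printed, had 2, 2 and 1 counts in U87MG-control and 8, 8 and 6 counts in U87MG-LMO2. All 3 U87MG-LMO2 libraries were above all 3 controls, and none of the 6 reached the filter. The ratio of summed counts per depth was 3.55 (95% interval 1.31 to 12). An exact 2-sided permutation test of CPM gave p = 0.1, the smallest value that 3 against 3 libraries allow. The antisense gene AL365259.1 overlaps HEY2, antisense genes also overlap NOTCH1 and JAG1, and AL512356.1 overlaps JAG2 on the same strand. The strand used in counting is not given in the sources used here, so reads of such pairs cannot be told apart.

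Within the HES and HEY family the summed level overlapped between the groups, whereas the share of HEY1 did not. HES1, HES2, HES4, HES6, HES7, HEY1 and HEY2 summed to 9.28, 10.2 and 8.62 FPKM in U87MG-control and to 10.2, 8.85 and 9.03 FPKM in U87MG-LMO2. HEY1 made up 22.7%, 22.0% and 25.5% of the sum in U87MG-control and 10.2%, 14.6% and 11.4% in U87MG-LMO2. HES1 made up 1.29%, 8.42% and 5.45% and then 22.3%, 20% and 8.42%. The HES1 share of U87MG-control replicate 2 was level with that of U87MG-LMO2 replicate 3.

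HES6 (55502), an inhibitor of HES1 activity in neural progenitors, had the largest share, 37.3% ± 3.47 and 38.9% ± 6.76 (SD, n = 3), and a log2 fold change of 0.14 (95% interval -0.34 to 0.61, adjusted p = 0.718), with -0.18 after GC correction. HES4 (57801) had 13, 17 and 16 counts against 21, 25 and 35 counts and a log2 fold change of 0.50 (adjusted p = 0.291). HES7 (84667), the oscillator of the segmentation clock, had 20, 19 and 8 counts against 8, 8 and 12 counts, which overlap, and it did not pass the filter. HES5 and HEYL were not analysed here.

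A wider set of 77 pathway genes in 8 lists was read beside these genes, and 61 of them were tested. Of these, 7 were called higher (11.5% of the 61) and 3 lower (4.92%), beside 4.72% and 2.75% of all tested genes, and the median log2 fold change was 0.01, beside -0.01. The shares by list were not read as differing from those of all genes. The lists were written with results of these libraries known. The higher calls numbered 2 without U87MG-control replicate 1, 1 without replicate 2, 1 without replicate 3, 2 without U87MG-LMO2 replicate 1, 5 without replicate 2 and 8 without replicate 3, and 4 after GC correction. The lower calls numbered 8 without U87MG-LMO2 replicate 3 and 0 without any one of the other 5 libraries. The calls over all genes moved with them, from 102 higher and 42 lower without U87MG-control replicate 3 to 1296 higher and 1109 lower without U87MG-LMO2 replicate 3, against 760 and 443 with all libraries. LFNG reached the filter in 2 control libraries and TLE2 in 2 U87MG-LMO2 libraries, so each entered the test through the group in which it was higher.

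In receptor processing, 2 of 9 genes were called higher and 1 lower (4.72% and 2.75% of all tested genes). FURIN (5045), the convertase of the first receptor cleavage, rose from 76.3 ± 3.42 to 108 ± 6.48 CPM (SD, n = 3), by 0.50 on the log2 scale (adjusted p = 0.0216). APH1A (51107), a gamma-secretase subunit, rose from 90.3 ± 5.95 to 120 ± 8.02 CPM, by 0.41 (adjusted p = 0.0448). ADAM17 (6868), a protease that can make the second cleavage, fell from 38.8 ± 3.81 to 27.9 ± 1.07 CPM, a log2 fold change of -0.48 (adjusted p = 0.0422). GC correction gave 0.29 for FURIN (adjusted p = 0.0881), 0.29 for APH1A (0.0811) and -0.27 for ADAM17 (0.237). Without U87MG-control replicate 3 the adjusted p was 0.117, 0.191 and 0.154 for FURIN, APH1A and ADAM17, the highest of the fits that left out 1 library. ADAM10, NCSTN and APH1B were not called.

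Of the 6 genes of receptor glycosylation, 1 was called higher and 0 lower (4.72% and 2.75% of all tested genes). LFNG (3955), the Fringe enzyme that shifts receptors towards Delta-like ligands, had 0.694, 2.78 and 2.50 CPM in U87MG-control and 6.10, 6.13 and 6.27 CPM in U87MG-LMO2. The U87MG-LMO2 libraries were almost level, and the lowest control was replicate 1. LFNG rose by 1.60 on the log2 scale (SE 0.36, 95% interval 0.78 to 2.43, adjusted p = 0.0364). Without U87MG-control replicate 1 the log2 fold change was 1.22 (adjusted p = 0.0436), and the highest adjusted p on leaving out a library was 0.107, without U87MG-LMO2 replicate 1. For LFNG the adjusted p was 0.0547 after GC correction. With limma it was 0.0673 on log2(FPKM + 0.1) and 0.0359 on log2(FPKM + 1). Of 11 tested ubiquitin ligases and endocytic regulators, 1 was called higher and 0 lower (4.72% and 2.75% of all tested genes). NEURL1B (54492), which ubiquitinates ligands in the sending cell, rose from 22.0 ± 1.61 to 43.1 ± 7.13 CPM, by 0.97 (adjusted p = 0.0109, up to 0.0623 on leaving out a library).

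In the nucleus, 0 of the 9 activator genes were called by edgeR, and 2 of them had an unadjusted p under 0.05, as did 25.7% of all tested genes. RBPJ (3516), the DNA-binding partner of the receptor domain, had 150, 95.6 and 95.4 CPM in U87MG-control and 72.0, 78.3 and 79.2 CPM in U87MG-LMO2. Its groups did not overlap, and U87MG-control replicate 1 stood above the other two controls. The log2 fold change was -0.57 (SE 0.17, 95% interval -0.97 to -0.17, adjusted p = 0.0840). RBPJ passed in 2 of 14 alternatives, with an adjusted p of 0.0313 by DESeq2 and 0.0457 with no filter on low counts. Without U87MG-control replicate 1 the log2 fold change was -0.32 (adjusted p = 0.149), and after GC correction it was -0.35 (adjusted p = 0.249). MAML1 (9794), MAML2 (84441) and MAML3 (55534) had log2 fold changes of -0.19, 0.00 and -0.69 (adjusted p = 0.280, 0.984 and 0.308).

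The repressor complex holds target genes silent when the receptor is not cleaved. Of its 11 tested genes, 1 was called higher and 1 lower (4.72% and 2.75% of all tested genes). Both were of the Groucho family of corepressors that bind HES proteins. TLE4 (7091) rose from 14.0 ± 0.567 to 26.5 ± 2.96 CPM (SD, n = 3), by 0.92 on the log2 scale (adjusted p = 0.00813, and 0.0513 without U87MG-control replicate 2). TLE2 (7089) fell from 2.59 ± 0.368 to 0.928 ± 0.465 CPM, a log2 fold change of -1.46 (adjusted p = 0.0407). Its adjusted p lay between 0.0699 and 0.137 on leaving out any library except U87MG-LMO2 replicate 3 (0.00494).

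Of 7 tested genes known as Notch targets in other settings, 2 were called higher and 1 lower (4.72% and 2.75% of all tested genes). TNC (3371), a matrix protein of glioma, rose from 2254 ± 93.9 to 3580 ± 560 CPM, by 0.67 on the log2 scale (adjusted p = 0.0197, up to 0.0986 without U87MG-control replicate 2). PDGFRB (5159), the PDGF receptor of mural cells, rose from 18.6 ± 4.08 to 35.3 ± 9.12 CPM, by 0.93 (adjusted p = 0.0379, up to 0.147 without U87MG-control replicate 3). The PDGFRB call was also lost after GC correction (adjusted p = 0.0541) and with limma on log2(FPKM + 0.1) or log2(FPKM + 1) (0.0569 and 0.0604). ACTA2 (59), smooth muscle actin, fell from 77.9 ± 8.78 to 44.5 ± 12.6 CPM, a log2 fold change of -0.81 (adjusted p = 0.0390, up to 0.144 without U87MG-control replicate 1). MYC, CCND1, CDKN1A and SNAI2 were not called. Among the 3 other receptors and ligands and the 5 other HES and HEY relatives that were tested, edgeR called 0, with 1 and 0 at an unadjusted p under 0.05 (25.7% of all tested genes).

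**Figure D3:**
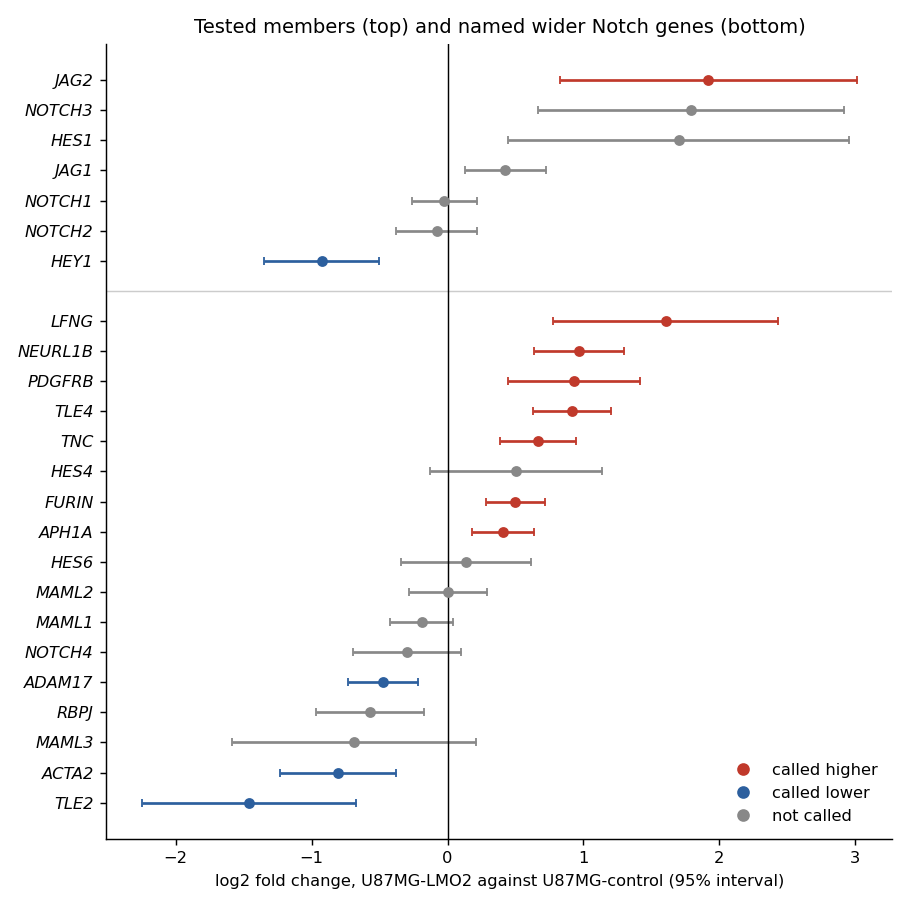
Log2 fold change of U87MG-LMO2 against U87MG-control with its 95% interval from edgeR, for the 7 tested Notch genes (top) and the named genes of the wider lists (bottom). Red and blue mark genes called higher and lower at an adjusted p under 0.05, and the intervals of NOTCH3, JAG1 and HES1 exclude 0 although their adjusted p did not pass.

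Other ways of testing all 6 libraries changed which of the Notch genes were called. DESeq2, which called 6.92% of the genes it gave an adjusted p higher and 4.76% lower, called JAG2 and HES1 higher and HEY1 lower. With no filter, JAG2 and NOTCH3 were called higher and HEY1 lower, against 3.45% and 1.86% of all genes. Upper-quartile normalization gave JAG2 and HEY1, with 4.77% and 2.75% of all genes. HEY1 was the only call among the Notch genes with at least 10 counts in every library (4.87% of all genes higher, 2.92% lower), with limma on log2(FPKM + 1) (3.24% and 2.29%) or log2(FPKM + 0.1) (3.18% and 2.26%), and after GC correction (3.54% and 2.24%). With all 6 libraries and no correction for the replicate number, HEY1 passed under every test, filter, normalization and unit tried, whereas JAG2 passed under the count tests without GC correction and did not pass on FPKM or after that correction. With at least 10 counts required in every library, NOTCH3, JAG2 and HES1 were removed before testing, so that this setting gave them no value. NOTCH1 and NOTCH2 passed under none of 14 alternatives each, and their log2 fold changes lay between -0.25 and 0.02 and between -0.24 and 0.01.

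**Figure D4:**
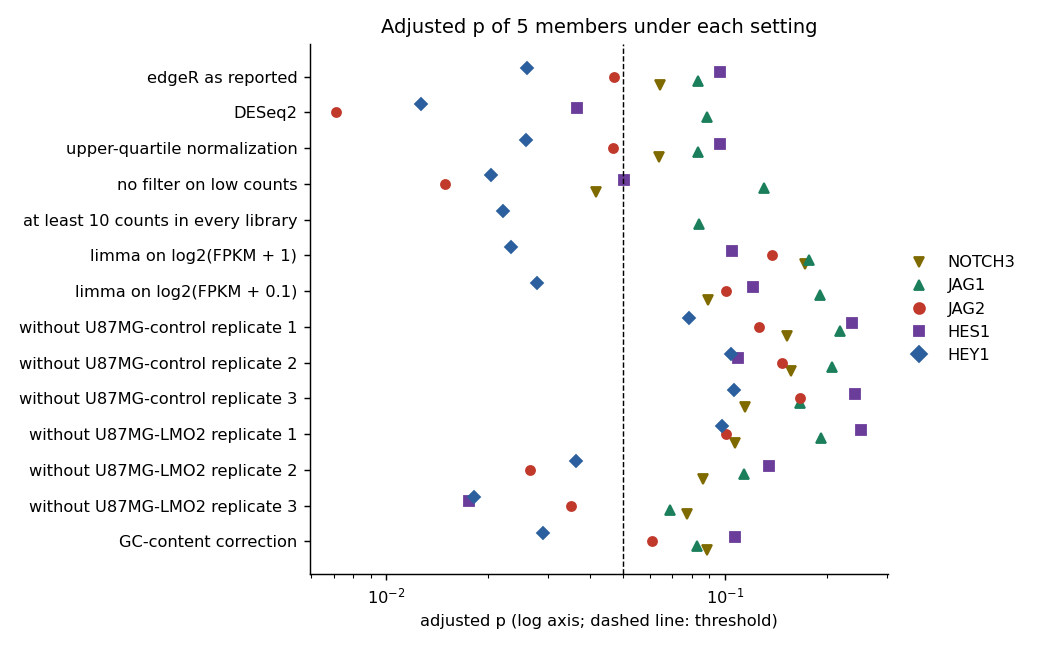
Adjusted p of NOTCH3, JAG1, JAG2, HES1 and HEY1 (log axis) in the reported edgeR fit and under the alternative settings, with the threshold of 0.05 as a dashed line. The replicate block is not shown, and under it HEY1 (0.0632) and JAG2 (0.0637) did not pass. HEY1 reaches 0.106 without U87MG-control replicate 3, and HES1 lies left of the line with DESeq2 (0.0365) and without U87MG-LMO2 replicate 3 (0.0176).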

How the data were processed

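Per the labels, total RNA of the 6 U87MG samples was sequenced by a service company, and the submitters' processing notes name Bowtie2, BWA and GRCh38.p12. The authors deposited, for each library, expected counts per gene, which are not normalized, and FPKM values scaled to gene length and depth. The authors' fold changes and probabilities in a comparison table were not used. Genes without a line were taken as 0 counts. In U87MG-LMO2 replicate 3, 3 lines were broken, and 134 genes whose values did not give the authors' mean within 0.001 FPKM (GFAP among them, no Notch gene followed) were left out of all tests.

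Expected counts were rounded and tested in R 4.3.3 with edgeR 4.0.16 (filterByExpr, at least 0.713 CPM in 3 libraries, TMM, glmQLFit, glmQLFTest, 2-sided, no block). P-values were adjusted by Benjamini-Hochberg over 16092 genes and called under 0.05, and intervals are 95%. CPM used TMM-adjusted library sizes. As alternatives, the test was replaced by DESeq2 1.42.0, TMM by upper-quartile normalization and the filter by none or by at least 10 counts in every library, beside limma 3.58.1 on log2(FPKM + 1) and log2(FPKM + 0.1), a replicate block, each library left out, and a GC lowess correction (span 0.3, 89.8% of tested genes with a GC value). The code was tested on simulated data. Count-ratio intervals are exact (conditional binomial).

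The genes and lists were chosen with earlier results of these data known. Named were LMO2, the 10 Notch genes, NOTCH4, DLL3, DLL4, HES4, HES5, HES6, HES7, HEYL, RBPJ, MAML1, MAML2 and MAML3, and each other gene of the 8 wider lists with an adjusted p under 0.05. NOTCH2NL genes, DNER and markers were named outside this rule. Symbols came from RefSeq by gene ID (89.6% matched), gene coordinates from GENCODE on GRCh38, and promoters from RefSeq on GRCh38.p14.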

Additional observations from a re-analysis of the deposited data

How the results depend on the processing

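HEY1 passed in 9 of 14 alternatives, JAG2 in 5 of 13, HES1 in 2 of 13, NOTCH3 in 1 of 12 and JAG1 in 0 of 14, and LMO2 passed in 13 of 13 with a log2 fold change from 7.67 to 10.0. Requiring 10 counts in every library left no value for LMO2, NOTCH3, JAG2, HES1, LFNG or TLE2, and DESeq2 gave NOTCH3 no adjusted p. The Notch genes called higher numbered 2 with DESeq2 and with no filter, and 0 with at least 10 counts in every library (JAG2 was not tested), with limma on log2(FPKM + 1), with limma on log2(FPKM + 0.1) and after GC correction. The wider Notch genes called higher numbered 4 with limma on log2(FPKM + 0.1) and 4 after GC correction, and those called lower 5 with DESeq2. Of all genes, DESeq2 called 691 lower, against 443. The sign turned for HES6 after GC correction (-0.18). Except for the counts that lost JAG2 to the filter, the cause was not tested.

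Leaving out each library moved the genes called higher between 102 (without U87MG-control replicate 3) and 1296 (without U87MG-LMO2 replicate 3), against 760, and those called lower between 42 and 1109 for the same libraries, against 443. The Notch genes called higher ranged from 0 (without any control or U87MG-LMO2 replicate 1) to 2 (without U87MG-LMO2 replicate 3), and those called lower from 0 (the same 4 libraries) to 1. The wider Notch genes called higher ranged from 1 to 8 and those called lower from 0 to 8. Fits without 1 library also have fewer samples. The log2 fold change turned sign for 3 genes that were not called: NOTCH1 ranged from -0.10 to 0.021 (0.021, 0.0082 and 0.0096 without U87MG-control replicates 2 and 3 and U87MG-LMO2 replicate 1), NOTCH2 from -0.24 to 0.0098 (without U87MG-LMO2 replicate 2) and MAML2 from -0.082 to 0.071 (-0.074 without U87MG-control replicate 3, -0.082 without U87MG-LMO2 replicate 3).

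Deviations from the group means correlated at -0.12, -0.00 and -0.04 between libraries of the same number, so no pairing was seen. Whether the libraries were made in pairs is not given in the sources used here. A replicate block left 387 genes called higher and 189 lower, the Notch genes called numbered 0 higher (JAG2 adjusted p = 0.0637) and 0 lower (HEY1 log2 fold change -0.93, adjusted p = 0.0632), and the wider Notch genes 5 higher and 0 lower. Depth limits DLL1, HEY2 and NOTCH3 most, with at most 5, 8 and 30 counts in a library.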
